A study of Mus musculus with 12 samples.

Results

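The AP-1 factors described here are the products of 8 genes, Jun, Junb, Jund, Fos, Fosb, Fosl1, Fosl2 and Batf, chosen by name among the 55401 genes of the deposited table. All 8 had a row and passed the filter on low counts, which left 17585 genes for testing, although Fosl1 and Batf were at or near 0 in untreated livers and passed through their values after acetaminophen. The 12 libraries were made from RNA of whole liver from male mice aged 7 to 10 weeks, in 4 groups of 3. In control mice (FBXL5F/F) the Fbxl5 alleles were flanked by loxP sites. FBXL5ΔDC mice had, besides these alleles, Cre recombinase under the Cd11c (Itgax) promoter, so the floxed alleles were common to all groups. Livers came from untreated mice (0 h) or from mice killed 6 h after acetaminophen, a painkiller that injures hepatocytes in overdose. The labels name 300 and 500 mg/kg as doses and do not tell which one these mice received, and they give a 16 h fast before injection without saying whether the 0 h mice were fasted. They do not say that replicates came from separate litters or cages, so p-values measure only the spread between these libraries.

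AP-1 is a family of dimeric transcription factors that bind DNA through a basic leucine zipper (bZIP). Jun proteins can pair with each other or with Fos proteins, while Fos proteins need a partner such as Jun to bind DNA. Many of the genes are immediate early genes, copied within minutes of a growth signal or stress, and the kinase JNK, which is activated in hepatocytes after an acetaminophen overdose, phosphorylates c-Jun.

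The libraries held 67173096 to 72512319 counts and 19203 to 21405 detected genes. Alb, the albumin gene of hepatocytes, averaged 56022 to 98075 CPM, that is, counts scaled to the library size, over the 4 groups. Fbxl5, the targeted gene, stood at 20.1 ± 2.27 and 17.2 ± 5.99 CPM (mean ± SD, n = 3) in control and FBXL5ΔDC livers at 0 h and at 15.8 ± 3.01 and 18.6 ± 5.25 CPM at 6 h. Itgax, which marks the cells the Cre line targets, was at most 0.414 CPM in any group, so whole liver does not check the deletion. On the first principal component of log2 CPM, which took 39.8% of the variance, control replicate 3 at 6 h scored 86.8, against -9.46 and -8.18 for the other control livers at 6 h and 97.7 to 107 for the FBXL5ΔDC livers at 6 h. Results that rest on this library are given with and without it.

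Before treatment the family was made up mostly of Jund messenger, and no member differed past the threshold between genotypes. Dividing CPM by the length of the annotated exons (CPM per kb) allows genes to be compared with each other. On that scale Jund, which encodes JunD, a Jun protein made at a steady level in many resting cells, held 81.6 ± 2.19% of the summed level of the 8 genes in control livers and 81.4 ± 3.85% in FBXL5ΔDC livers. Jun held 8.10 ± 1.90% and 9.51 ± 4.20%, Junb 8.50 ± 0.75% and 7.32 ± 1.75%, and Fosl2 1.22 ± 0.22% and 1.21 ± 0.10%. Fos, Fosb, Fosl1 and Batf each held at most 0.572% in any untreated library. None of the 8 genes passed the threshold between genotypes at 0 h, where 0.0% of the 17585 tested genes did (edgeR, adjusted p below 0.05). DESeq2 and limma-voom also called 0 members there, and 0 members had an unadjusted edgeR p below 0.05. For Fosl1 and Batf no difference was estimated at 0 h because both groups lay under the detection floor of 12 counts per library, equal to 0.161 CPM for control and 0.175 CPM for FBXL5ΔDC livers.

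**Figure D1:**
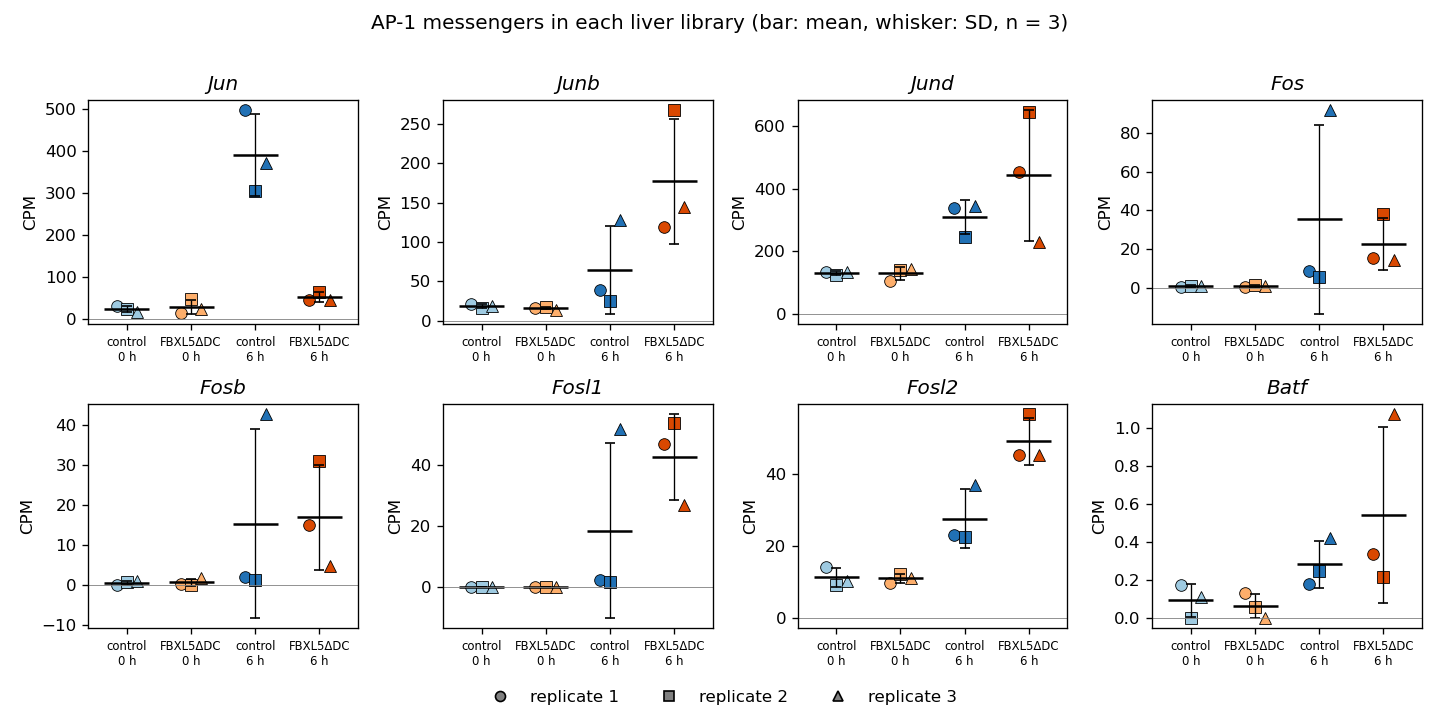
CPM of each of the 8 AP-1 genes in the 12 libraries, by group, with a symbol for each replicate, a bar for the mean and a whisker for the SD (n = 3). Jun is high in the 3 control livers at 6 h (304 to 497 CPM) and low in all others (15.7 to 66.4 CPM). Fos has its highest group mean in control livers at 6 h through replicate 3 (91.7 CPM, against 8.71 and 5.56 CPM in replicates 1 and 2). All other members have it in FBXL5ΔDC livers at 6 h.

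In control livers 6 h after acetaminophen, 4 of the 8 genes were called higher and 0 lower (Jun, Jund, Fos and Fosl2), where 6.36% of all tested genes were called higher and 4.2% lower. The median log2 change of the members was 2.88, beside 0.03 for all tested genes. In FBXL5ΔDC livers 5 of the 8 were called higher and 0 lower (Junb, Jund, Fos, Fosl1 and Fosl2), where 15.0% of all tested genes were called higher and 15.1% lower, with a median of 3.28 beside 0.02. With Fosl1 and Batf, whose untreated groups lay under the floor, set at their lower bounds the medians were 2.88 and 2.81. Every treated library lay above every untreated library of its genotype for 8 of 8 genes in control livers, as for 15.3% of tested genes, and for 7 of 8 in FBXL5ΔDC livers, as for 24.2%. The exception was Jun. These counts include Fosl1 and Batf, and the 5 called include Fosl1. Both genes passed the filter through their treated values, so for them such counts give no separate support for a rise. In whole liver a change in the number of cells that make a messenger and a change in messenger per cell cannot be told apart.

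Jun encodes c-Jun, the founding member of the family. Its gene is a single exon of 3189 bases on chromosome 4 (GRCm38 chr4:95049034-95052222, minus strand). In untreated control livers it stood at 30.9, 25.2 and 18.3 CPM in replicates 1, 2 and 3, and in untreated FBXL5ΔDC livers at 15.7, 49.2 and 25.7 CPM. At 6 h it stood at 497, 304 and 371 CPM in control livers and at 46.6, 66.4 and 45.2 CPM in FBXL5ΔDC livers. All 3 treated control livers were far above the other 9 libraries, and the treated FBXL5ΔDC livers overlapped their untreated group through its replicate 2.

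The log2 change of Jun with acetaminophen was 3.98 (SE 0.41, edgeR adjusted p = 2.92e-04) in control livers, a 15.8-fold rise. In FBXL5ΔDC livers it was 0.80 (SE 0.37, edgeR adjusted p = 0.123), which did not pass the threshold. At 6 h Jun was lower in FBXL5ΔDC than in control livers, with a difference on the log2 scale of -2.89 (SE 0.39, edgeR adjusted p = 0.00469), and at 0 h the difference was 0.28 with an adjusted p of 1. The difference between the 2 responses, the interaction, was -3.17 (SE 0.53, edgeR adjusted p = 0.0465). Without control replicate 3 at 6 h the interaction was -3.21 (adjusted p = 0.0115) and the difference at 6 h -2.93 (adjusted p = 0.00249), so neither rested on the library that stood apart.

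The rise in control livers and the difference at 6 h passed the threshold in 21 of 21 alternative analyses each. The interaction kept its direction in 20 of 20 but passed in 7. With 1 library left out it passed without FBXL5ΔDC replicate 1 at 0 h or control replicate 3 at 6 h, and was lost without any other (adjusted p = 0.0793 to 0.142). Without FBXL5ΔDC replicate 2 at 0 h, the highest untreated library, the log2 change of Jun in FBXL5ΔDC livers was 1.35 (edgeR adjusted p = 0.00983) and the interaction -2.63 (adjusted p = 0.0865).

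The stretches upstream of 3 members are shown because AP-1 binds some of its own genes, and these stretches hold the letters of AP-1 or related bZIP elements. RefSeq promoters (GRCm38.p6) were found for 7 of the 8 members, all but Fosl1, and the 250 bases before the start site were searched on both strands. The Jund window ends 1210 bases before the annotated gene, and the Fosl2 window lies wholly within annotated exon (250 of 250 bases). Capitals mark TGACATCA, an AP-1 element known from the Jun promoter, and TGACG, a half-site of the CREB and ATF element. Only the elements named below were searched for, so unmarked letters may hold others. The windows are chr4:95052223-95052472 (minus strand) for Jun, chr8:84978749-84978998 (minus strand) for Junb and chr12:85473640-85473889 (plus strand) for Fos, each written 5′ to 3′ toward its gene.
Jun: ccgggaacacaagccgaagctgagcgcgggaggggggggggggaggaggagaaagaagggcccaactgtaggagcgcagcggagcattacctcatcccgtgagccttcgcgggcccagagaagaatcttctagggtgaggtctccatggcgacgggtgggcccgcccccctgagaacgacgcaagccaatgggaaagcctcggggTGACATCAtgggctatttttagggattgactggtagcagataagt
Junb: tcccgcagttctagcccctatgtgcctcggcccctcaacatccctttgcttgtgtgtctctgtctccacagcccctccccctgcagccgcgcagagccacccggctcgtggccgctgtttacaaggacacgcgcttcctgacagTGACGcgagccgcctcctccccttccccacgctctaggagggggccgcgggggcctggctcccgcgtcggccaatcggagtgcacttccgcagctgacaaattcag
Fos: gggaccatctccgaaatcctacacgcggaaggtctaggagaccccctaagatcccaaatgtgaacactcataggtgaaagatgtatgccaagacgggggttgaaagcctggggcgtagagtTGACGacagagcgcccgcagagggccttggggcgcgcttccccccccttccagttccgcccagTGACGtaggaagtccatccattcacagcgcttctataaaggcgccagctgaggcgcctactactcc

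TGACATCA lay 45 to 38 bases before the start of Jun, and it or its reverse complement TGATGTCA was found in 1 of the 7 member windows and in 2.93% of 32851 promoter windows. TGACTCA or TGAGTCA, the classical AP-1 element, was found in 0 of the 7 and in 4.46% of all windows. TGACGTCA, the full CREB and ATF element, was found in 0 of the 7 and in 1.55%, and the CArG box bound by SRF in 0 of the 7 and in 1.47%. The half-site TGACG or CGTCA, which any full TGACGTCA also contains, was searched for after the sequences had been seen. It was found in 4 of the 7 (Junb, Fos, Fosb and Batf) and in 17.8% of all windows, at 106 to 102 bases before the start of Junb and at 129 to 125 and 66 to 62 bases before the start of Fos. A match describes the letters of a window and shows no bound site. Bases outside the 250 were not searched, so 0 matches does not mean that a gene lacks an element, the CArG box included.

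At 6 h 1 of the 8 genes was called lower in FBXL5ΔDC livers (Jun, where 4.51% of tested genes were lower) and 1 higher (Fosl2, where 1.35% were higher). In the 3 treated livers of each genotype these 2 genes were also the ones whose libraries did not overlap, Jun below, as 11.2% of tested genes, and Fosl2 above, as 9.74%. In the interaction 0 of the 8 were called higher, where 0.0341% of tested genes were, and 1 lower (Jun, where 0.256% of tested genes were lower). For Fosl1 and Batf no interaction was estimated, because both untreated groups lay under the floor. Junb and Fosl2 had a higher interaction at an unadjusted edgeR p below 0.05. That threshold is looser, and the share of all tested genes that pass it is not given. Of the 1118 genes called higher in control livers, 92 (8.23%) were, like Jun, lower in FBXL5ΔDC livers at 6 h, and 8 (0.716%) were lower in the interaction, a call that Jun itself kept in 7 of 20 alternatives. Of the 17585 tested genes, 3 had Jun's full combination of calls, higher in control livers, not called in FBXL5ΔDC livers, lower at 6 h and lower in the interaction. The other two were Ddit3, the stress-induced factor CHOP, at 89.3 ± 29.9 CPM in treated control and 4.60 ± 0.838 CPM in treated FBXL5ΔDC livers, and Dnajb1, an Hsp40 co-chaperone, at 554 ± 346 and 19.6 ± 7.70 CPM. Both were named after their values had been seen.

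By a rule of likeness, the root mean square difference of log2 CPM over the 12 libraries after centring each gene on its untreated control mean, the 3 genes closest to Jun among 12278 genes with a mean of at least 1 CPM were Lor at 0.58, Zfand2a at 0.73 and Prg4 at 0.81, against a median of 2.14. Lor encodes loricrin of the skin barrier, Zfand2a a stress-inducible zinc finger protein and Prg4 the lubricant protein lubricin. At 6 h Lor stood at 43.4 ± 15.8 CPM in control livers, against 7.37 ± 2.87 CPM in FBXL5ΔDC livers. No other AP-1 gene came closer to Jun than Jund at 1.46.

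JunB and JunD are the other Jun proteins, and JunB can oppose c-Jun at some promoters. Junb lies on chromosome 8 (GRCm38 chr8:84974484-84978718, minus strand). It stood at 21.5, 16.2 and 18.6 CPM in untreated control livers and at 16.5, 17.0 and 13.8 CPM in untreated FBXL5ΔDC livers. After acetaminophen Junb stood at 39.1, 25.2 and 128 CPM in control and at 119, 268 and 144 CPM in FBXL5ΔDC livers. Control replicate 3 lay among the FBXL5ΔDC livers, and the other 2 treated control livers lay below all 3 of them.

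Junb rose in FBXL5ΔDC livers by a log2 change of 3.49 (SE 0.57, edgeR adjusted p = 0.00147), in 21 of 21 alternatives. In control livers its log2 change of 1.77 (SE 0.53, edgeR adjusted p = 0.0593) missed the threshold. Without control replicate 3 at 6 h the change fell to 0.77 (adjusted p = 0.185). It passed in 5 of 21 alternatives, without control replicate 2 at 6 h (2.15, adjusted p = 0.0157) and with DESeq2, library totals only, counts divided by 4 and a dispersion estimate that was not robust (1.71 to 1.78, adjusted p = 0.0212 to 0.0495). The difference at 6 h was 1.46 (SE 0.52, edgeR adjusted p = 0.128) and the interaction 1.72 (adjusted p = 0.319). Without control replicate 3 at 6 h these became 2.46 (adjusted p = 8.30e-04) and 2.71 (adjusted p = 0.00352), both past the threshold, and limma-voom also called the difference at 6 h (1.75, adjusted p = 0.0385). With control replicate 3 left out, Jun was called lower and Junb higher in FBXL5ΔDC livers at 6 h.

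Jund, a single exon of 1668 bases (GRCm38 chr8:70698949-70700616, plus strand), stood at 134, 123 and 134 CPM in untreated control livers and at 106, 139 and 144 CPM in untreated FBXL5ΔDC livers. In treated livers Jund stood at 337, 247 and 343 CPM in control and at 452, 645 and 230 CPM in FBXL5ΔDC livers. All 6 treated livers were above all 6 untreated ones, and the genotypes overlapped at 6 h. Its log2 change was 1.25 (SE 0.29, edgeR adjusted p = 0.0183) in control and 1.77 (SE 0.29, edgeR adjusted p = 0.00110) in FBXL5ΔDC livers.

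The call in control livers was lost without control replicate 1, 2 or 3 at 0 h (adjusted p = 0.0605, 0.0762 and 0.0640) and without control replicate 3 at 6 h (adjusted p = 0.0623), with log2 changes of 1.17 to 1.27. At 6 h the log2 difference between genotypes was 0.52 (SE 0.28, edgeR adjusted p = 0.311), and 0.83 (adjusted p = 0.0435) without FBXL5ΔDC replicate 3 at 6 h.

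**Figure D2:**
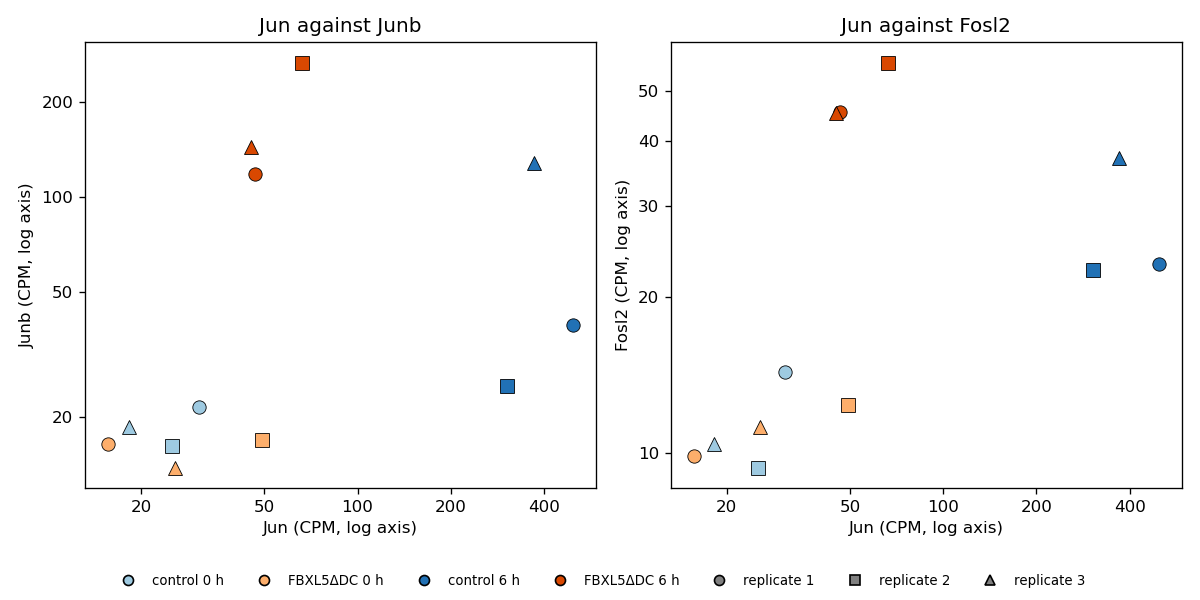
CPM of Jun (horizontal, log axis) against Junb (left) and Fosl2 (right, vertical log axes) in the 12 libraries, 1 point each, coloured by group and shaped by replicate. Treated control livers lie to the right, at high Jun, and treated FBXL5ΔDC livers lie at the top left, at 45.2 to 66.4 CPM of Jun with 119 to 268 CPM of Junb and 45.3 to 56.6 CPM of Fosl2.

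The composition of the family per length is given as a description, with no test. In treated control livers Jun held 40.7%, 36.6% and 25.6% of the summed CPM per kb, and in treated FBXL5ΔDC livers 3.91%, 3.61% and 5.91%. Junb held 4.45%, 4.20% and 12.3% in treated control livers and 13.8%, 20.1% and 26.1% in treated FBXL5ΔDC livers. The share of Jun was higher in each treated control liver than in any other library, and the share of Junb was higher in each treated FBXL5ΔDC liver than in any other library.

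The ratio of Jun to Junb per length was 9.16, 8.72 and 2.08 in treated control livers and 0.283, 0.179 and 0.226 in treated FBXL5ΔDC livers, against 0.686 to 2.09 in the 6 untreated livers. Jund held 51.7 ± 5.81% and 65.6 ± 7.64%. The 3 Jun genes together held 83.4% to 98.0% in treated control livers and 89.4% to 90.7% in treated FBXL5ΔDC livers, and the lowest of these was control replicate 3. The summed CPM per kb was 383, 260 and 453 in treated control and 374, 577 and 240 in treated FBXL5ΔDC livers, which overlapped, against 77.2 to 108 in untreated livers.

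**Figure D3:**
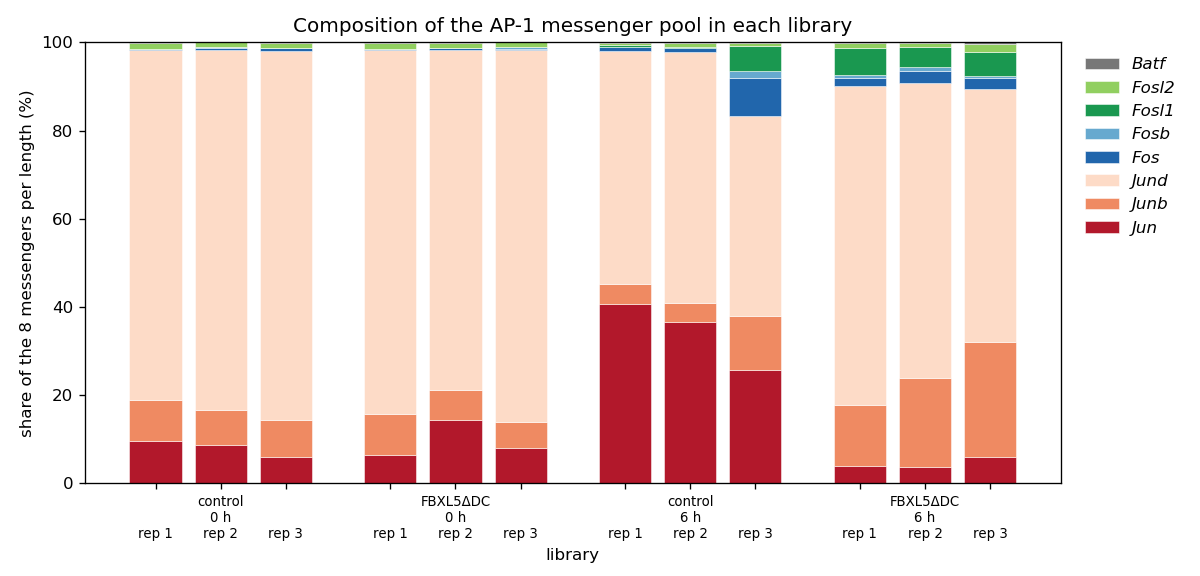
Share (%) of each AP-1 gene in the summed CPM per kb of exon of the 8 genes, 1 stacked bar for each of the 12 libraries. Jund has the largest share of each bar, Jun takes 25.6% to 40.7% of the treated control livers and 3.61% to 5.91% of the treated FBXL5ΔDC livers, and Junb takes up to 26.1% in the latter.

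Of the Fos genes, Fos, Fosb and Fosl1 were at 1.71 CPM or less in every untreated liver and spread widely between treated livers. Fos, which encodes c-Fos, lies on chromosome 12 (GRCm38 chr12:85473890-85477273, plus strand). It stood at 0.371, 0.955 and 1.14 CPM in untreated control livers and at 0.457, 1.45 and 0.745 CPM in untreated FBXL5ΔDC livers. After treatment Fos stood at 8.71, 5.56 and 91.7 CPM in control and at 15.4, 38.03 and 14.5 CPM in FBXL5ΔDC livers. All treated livers were above all untreated ones, and control replicate 3 was the highest of all.

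Fos rose by a log2 change of 5.42 (SE 1.17, edgeR adjusted p = 0.0190) in control and 4.67 (SE 1.14, edgeR adjusted p = 0.0123) in FBXL5ΔDC livers. The call in control livers was lost with limma-voom (4.39, adjusted p = 0.124), with only the groups of the contrast in the fit (5.44, adjusted p = 0.0642) and without control replicate 1, 2 or 3 at 0 h (adjusted p = 0.0804, 0.0837 and 0.0718), and the change was 3.11 (adjusted p = 0.0128) without control replicate 3 at 6 h. In FBXL5ΔDC livers the call was lost with limma-voom (adjusted p = 0.0565) and without replicate 1 or 3 at 0 h (adjusted p = 0.0547 and 0.0552). The log2 difference between genotypes at 6 h was -0.64 (SE 0.95, edgeR adjusted p = 0.749), which turned to 1.66 (adjusted p = 0.0819) without control replicate 3.

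Fosb encodes FosB, a relative of c-Fos that also accumulates with repeated stimulation in brain, and lies on chromosome 7 (GRCm38 chr7:19302696-19310051, minus strand). It stood at 0, 0.887 and 0.940 CPM in untreated control and at 0.271, 0 and 1.71 CPM in untreated FBXL5ΔDC livers. In treated livers Fosb stood at 2.12, 1.31 and 42.5 CPM in control and at 14.9, 30.9 and 4.77 CPM in FBXL5ΔDC livers. The treated libraries of each genotype lay above its untreated ones, and control replicate 3 was far above the other treated control livers. Neither change passed the threshold. The log2 changes were 4.65 (SE 1.86, edgeR adjusted p = 0.156) in control and 4.67 (SE 1.86, edgeR adjusted p = 0.0900) in FBXL5ΔDC livers. Without control replicate 3 at 6 h the change of Fosb in control livers was 1.49 (adjusted p = 0.694), and 0 of 21 alternatives called it. The change in FBXL5ΔDC livers was called in 3 of 21, DESeq2 (adjusted p = 0.04998), counts divided by 4 (adjusted p = 0.0495) and a dispersion estimate that was not robust (adjusted p = 0.0459).

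Fosl1 encodes FRA-1, a Fos protein without the strong activation domain of c-Fos, and lies on chromosome 19 (GRCm38 chr19:5447547-5455946, plus strand). It had 0 counts in all 6 untreated livers. At 6 h it stood at 2.19, 1.69 and 51.6 CPM in control and at 46.8, 53.7 and 26.7 CPM in FBXL5ΔDC livers. Its messenger was thus counted in treated livers alone, at a low level in 2 control livers and at 26.7 CPM or more in the other 4 treated livers.

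Against the floor of 12 counts per library, the mean of Fosl1 was at least 114.5-fold higher after acetaminophen in control (edgeR adjusted p = 0.0656) and at least 241.5-fold higher in FBXL5ΔDC livers (edgeR adjusted p = 0.0247). The bound in control livers rested on replicate 3 and was 12.05-fold without it. The call in FBXL5ΔDC livers was lost with limma-voom (adjusted p = 0.117), with no low-count filter (adjusted p = 0.0721), without any 1 of its 0 h replicates (adjusted p = 0.0537 to 0.0566) or without its replicate 1 or 2 at 6 h (adjusted p = 0.0659 and 0.0567). The rise in control livers passed without control replicate 3 at 6 h (adjusted p = 1.53e-04), with DESeq2 (adjusted p = 4.51e-08) and with a dispersion estimate that was not robust (adjusted p = 0.0168), 3 of 21 alternatives. Fosl1 passed the filter through its treated values, so these p-values for its rise in either genotype give no separate support for it. The log2 difference between genotypes at 6 h was 1.20 (SE 1.41, edgeR adjusted p = 0.687), and 4.44 (adjusted p = 6.56e-05) without control replicate 3. It was also called with limma-voom (2.94, adjusted p = 0.0426). Over 57.2% of its exon bases Fosl1 overlaps Ccdc85b on the other strand, and the sources used here do not give the strand setting of the counting. Ccdc85b was counted at 8.56 ± 1.09 and 7.30 ± 0.955 CPM at 0 h in control and FBXL5ΔDC livers. Fosl1 had 0 counts there, so counts of Ccdc85b at 0 h were not given to Fosl1. At 6 h Ccdc85b stood at 28.5 ± 28.4 and 65.3 ± 7.87 CPM. How reads of the shared bases were split at 6 h is not known, which leaves the 6 h counts of Ccdc85b above all uncertain as to gene. Jund shares 52.6% of its exon bases with Gm11175 on the other strand, which stood at 0.316 CPM or less in every group mean, and Jun and Junb share 7.28% and 7.52% with Junos and Prdx2.

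Fosl2 encodes FRA-2, which is made in resting tissue as well as on stimulation, and lies on chromosome 5 (GRCm38 chr5:32135801-32157842, plus strand). It stood at 14.3, 9.36 and 10.4 CPM in untreated control and at 9.87, 12.4 and 11.2 CPM in untreated FBXL5ΔDC livers. After acetaminophen Fosl2 stood at 23.1, 22.6 and 37.1 CPM in control and at 45.5, 56.6 and 45.3 CPM in FBXL5ΔDC livers. The 3 treated FBXL5ΔDC livers were above all treated control livers, which were above all untreated ones.

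Fosl2 rose by 1.28 (SE 0.22, edgeR adjusted p = 0.00361) in control and 2.14 (SE 0.22, edgeR adjusted p = 7.50e-05) in FBXL5ΔDC livers on the log2 scale. The call in control livers was lost with only the groups of the contrast in the fit (1.28, adjusted p = 0.0566). At 6 h Fosl2 was higher in FBXL5ΔDC livers by 0.83 (SE 0.21, edgeR adjusted p = 0.0394), a call that passed in 8 of 21 alternatives, with adjusted p up to 0.174. With 1 library left out it passed without control replicate 1 at 0 h or control replicate 3 at 6 h, and was lost without any other (adjusted p = 0.0523 to 0.163). The interaction was 0.86 (SE 0.30, edgeR adjusted p = 0.221). Without control replicate 3 at 6 h the difference was 1.10 (adjusted p = 6.99e-04) and the interaction 1.13 (adjusted p = 0.00717). Of the 17585 tested genes, 29 (0.165%) had Fosl2's combination of calls.

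Batf encodes a small bZIP protein that pairs with Jun and acts with IRF4 or IRF8 in lymphocytes and dendritic cells, and lies on chromosome 12 (GRCm38 chr12:85686669-85709087, plus strand). It had 13, 0 and 8 counts in untreated control and 9, 4 and 0 in untreated FBXL5ΔDC livers, and 14, 20 and 28 counts in treated control and 22, 13 and 72 in treated FBXL5ΔDC livers. These are few counts in every library, equal to at most 1.07 CPM, and FBXL5ΔDC replicate 3 at 6 h was the highest. The treated libraries of each genotype lay above its untreated ones. With the untreated groups under the floor, the mean of Batf was at least 1.75-fold higher after acetaminophen in control (edgeR adjusted p = 0.505) and at least 3.09-fold higher in FBXL5ΔDC livers (edgeR adjusted p = 0.105), and neither passed the threshold. Without FBXL5ΔDC replicate 3 at 6 h the bound in FBXL5ΔDC livers was 1.57-fold. DESeq2 called the change in FBXL5ΔDC livers (adjusted p = 0.0355), the only 1 of 20 alternatives that did, and 0 of 20 called the change in control livers. Batf also passed the filter through its treated values, so the DESeq2 call gives no separate support for a rise.

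**Figure D4:**
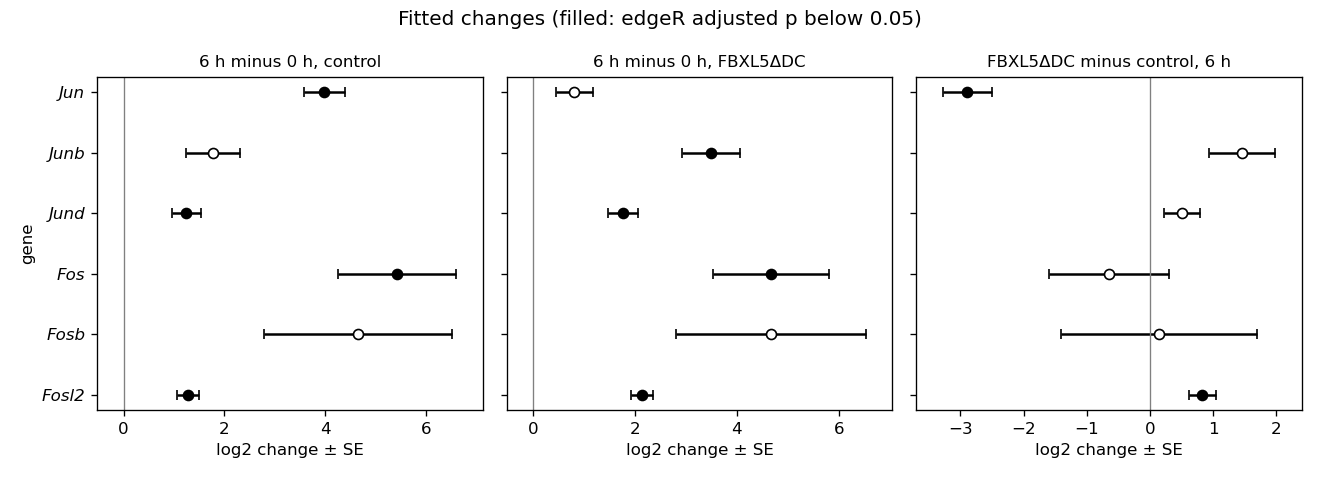
Fitted log2 change ± SE of 6 AP-1 genes (Fosl1 and Batf, under the floor in untreated livers, are left out) for the acetaminophen response of control livers (left), that of FBXL5ΔDC livers (middle) and FBXL5ΔDC minus control at 6 h (right), filled where the edgeR adjusted p is below 0.05. Jun has a change of 3.98 in the left panel, 0.80 in the middle panel and -2.89 in the right panel.

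The members were compared with each other by the same measure over the 12 libraries. The closest pair was Jund and Fosl2, with a root mean square difference of 0.40, followed by Junb and Fosl2 at 0.66. Fos came no closer than 1.79 to any other member, and that was Fosb. By the likeness rule used for Jun, the nearest genes to Junb were Gm12840 at 0.24, Tgif1, a homeodomain repressor, at 0.24 and Ccdc85b at 0.32. Ccdc85b overlaps Fosl1, and its counts at 6 h are uncertain as to gene. The nearest to Jund were Iffo2 at 0.23, Ripk4 at 0.30 and Arl6ip5 at 0.30.

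For Fos the nearest were the metallothionein gene Mt1 at 0.67, the antiproliferative gene Btg2 at 0.76 and the zinc finger gene Klf6 at 0.77. For Fosb they were Maff at 1.62, Mt1 at 1.80 and Emp1 at 1.81, and for Fosl1 the phosphatase gene Dusp5 at 1.64, Ch25h at 2.05 and Sprr1a at 2.24. Fosl2 was nearest to Mphosph6 at 0.17, the nucleolar gene Gnl3 at 0.22 and Gm49037 at 0.23. Batf was nearest to Npl at 0.68, the endothelial marker Lyve1 at 0.71 and Syt12 at 0.79. The medians over all compared genes ran from 1.15 for Jund to 6.62 for Fosl1, so the distances of different members are not on equal footing.

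Jun and Fos proteins also pair with other bZIP factors, the ATF and small MAF proteins among them. Of 14 such genes 13 were tested, and 4 were called higher and 0 lower in control livers (median log2 change 0.52) and 5 higher and 2 lower in FBXL5ΔDC livers (median 0.47). Between treated genotypes 1 was higher and 3 were lower in FBXL5ΔDC livers (median -0.15). These counts, and those of the lists below, stand beside the shares of all tested genes given above, 6.36% higher and 4.2% lower in control livers, 15.0% and 15.1% in FBXL5ΔDC livers, and 1.35% and 4.51% between treated genotypes. Counts between treated genotypes on several of these lists depended on the alternative used, as given at the end. Where a pair of changes is given below, the first is for control and the second for FBXL5ΔDC livers. Atf3, a stress-induced partner of c-Jun, stood at 671, 583 and 416 CPM in treated control and at 57.8, 123 and 19.3 CPM in treated FBXL5ΔDC livers, against 0.314 to 1.93 CPM in untreated livers. Like Jun, Atf3 was higher in every treated control liver than in any treated FBXL5ΔDC liver, and it was also above every untreated liver in both genotypes.

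Atf3 rose by 8.88 (edgeR adjusted p = 6.16e-04) in control and 6.01 (adjusted p = 7.58e-04) in FBXL5ΔDC livers on the log2 scale, and was lower in FBXL5ΔDC livers at 6 h by -3.06 (adjusted p = 0.0353), with an interaction of -2.86 (adjusted p = 0.236). Maff and Mafk, small MAF genes, rose in both genotypes, Maff by 5.12 and 5.64 and Mafk by 2.26 and 3.13 in control and FBXL5ΔDC livers. Batf2, a relative of Batf, stood at 0.352 ± 0.275 CPM in treated control and 3.11 ± 0.272 CPM in treated FBXL5ΔDC livers (log2 difference 3.14, edgeR adjusted p = 0.0247). Irf8, the 1 of 2 Batf partner IRFs that was tested, rose by 0.98 (adjusted p = 0.0288) and 2.39 (adjusted p = 1.05e-04) and was higher in treated FBXL5ΔDC livers by 1.68 (edgeR adjusted p = 0.00553).

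Genes of the kinase pathways that act on AP-1 were counted in the same way. Of 17 genes of the JNK cascade 15 were tested, with 1 higher and 0 lower in control and 5 higher (33.3%) and 3 lower (20.0%) in FBXL5ΔDC livers, and 0 higher and 1 lower between treated genotypes. Gadd45a, a stress gene whose family activates an upstream kinase of JNK, rose by 5.66 (edgeR adjusted p = 3.15e-04) and 5.08 (adjusted p = 1.95e-04). Gadd45g rose in FBXL5ΔDC livers by 2.32 (edgeR adjusted p = 0.00615), as did the JNK scaffold gene Mapk8ip3 by 1.25 (adjusted p = 4.21e-04). Map3k11, a kinase upstream of JNK, was lower in treated FBXL5ΔDC livers by -0.47 (edgeR adjusted p = 0.0399).

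Of 17 tested genes of the ERK and p38 cascades and their SRF, TCF and CREB factors, 1 was higher and 1 lower in control and 2 were higher (11.8%) and 4 lower (23.5%) in FBXL5ΔDC livers, beside 15.0% and 15.1% of all tested genes. Map2k3, a p38 kinase kinase, rose by 1.69 (edgeR adjusted p = 0.00300) and 1.90 (adjusted p = 5.25e-04), and Rps6ka1, an ERK-activated kinase, fell by 0.68 (adjusted p = 0.0308) and by 1.51 (adjusted p = 1.76e-04). Creb1 fell by 0.80 (edgeR adjusted p = 0.00850) in FBXL5ΔDC livers. Of 7 genes for the turnover of Jun and Fos proteins, 0 were called in control livers and 2 were lower in FBXL5ΔDC livers, the ubiquitin ligase genes Itch by -1.05 (edgeR adjusted p = 5.82e-04) and Cop1 by -0.65 (adjusted p = 0.00196). Itch was also lower between treated genotypes by -0.59 (edgeR adjusted p = 0.0439).

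Of 8 genes for proteins that bind AU-rich messengers, such as those of Fos, 1 was higher in control livers (Hnrnpd by 0.74, edgeR adjusted p = 0.00634) and 3 in FBXL5ΔDC livers. These were Hnrnpd by 0.93 (adjusted p = 5.88e-04), the decay factor gene Zfp36 by 1.56 (adjusted p = 0.0155) and Elavl1 by 0.64 (edgeR adjusted p = 0.0473), and 0 were called between treated genotypes. None of the genes of these lists, nor of the AP-1 target list, was called at 0 h or in the interaction.

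Most textbook AP-1 targets were not called with acetaminophen. Of 17 genes 15 were tested, with 3 higher (20.0%) and 0 lower in control livers (median log2 change 1.79), 4 higher (26.7%, beside 15.0% of all tested genes) and 0 lower in FBXL5ΔDC livers (median 2.45), and 2 higher and 0 lower between treated genotypes (median 0.64). Plaur, the urokinase receptor gene, rose by 3.34 (edgeR adjusted p = 0.00370) and 6.20 (adjusted p = 8.00e-05) and was higher in treated FBXL5ΔDC livers by 1.93 (adjusted p = 0.0450). Hbegf, an EGF receptor ligand, stood at 1.44, 1.08 and 7.82 CPM in treated control and at 25.8, 108 and 21.9 CPM in treated FBXL5ΔDC livers (log2 difference 3.91, edgeR adjusted p = 0.0359). Ccnd1, the cyclin D1 gene and a classical target of c-Jun, stood at 54.7, 56.4 and 10.5 CPM in treated control and at 20.3, 12.6 and 27.7 CPM in treated FBXL5ΔDC livers. It rose in control livers by 1.95 (edgeR adjusted p = 0.0464), while replicate 3 stayed within the untreated range of 5.86 to 13.7 CPM. Whether Ccnd1 followed Jun was not tested.

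Markers of several cell types, but not of dendritic cells or lymphocytes, moved with the treated groups. Their part in the AP-1 values was not tested. The summed CPM of 5 cholangiocyte markers was 5.05 to 8.49 in untreated livers, 20.9, 18.0 and 47.0 in treated control and 94.6, 212 and 45.2 in treated FBXL5ΔDC livers, mostly from Sox9, with Cftr at most 0.098 CPM in any group mean. The sum of 6 sinusoidal endothelium markers was 129, 118 and 204 CPM in treated control and 245 to 286 CPM in treated FBXL5ΔDC livers, and that of 6 stellate cell markers 101 to 156 and 173 to 214 CPM. The sum of 7 hepatocyte markers was 71016, 77105 and 118428 CPM in treated control and 107137 to 141449 CPM in treated FBXL5ΔDC livers. Untreated livers had 80864 to 95783 CPM. Most of this sum was Alb, and Cyp2e1, the hepatocyte enzyme that activates acetaminophen, went the other way. It averaged 8221 and 9097 CPM in untreated control and FBXL5ΔDC livers and 3511 and 843 CPM in treated ones, and was called lower with acetaminophen in both genotypes, lower in FBXL5ΔDC livers at 6 h by -2.06 (edgeR adjusted p = 0.00365) and lower in the interaction by -2.21 (adjusted p = 0.0327). In each of the cholangiocyte, endothelial, stellate and hepatocyte sums control replicate 3 was the highest treated control liver, as it was for 7 of the 8 AP-1 genes, all but Jun. For the neutrophil and Kupffer cell sums, given below, replicate 2 was the highest treated control liver. Control replicate 3 was the lowest treated control liver for monocyte and macrophage, dendritic cell, lymphocyte and red blood cell markers.

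Neutrophil markers summed to 0.73 to 1.87 CPM in untreated livers, 2.66 to 3.71 CPM in treated control and 3.40 to 10.2 CPM in treated FBXL5ΔDC livers, with Ly6g at 0 in every untreated and treated control liver. Of 6 tested, 1 was called higher in control and 4 in FBXL5ΔDC livers. Monocyte and macrophage markers summed to 29.6 to 35.1 CPM in untreated and 53.6 to 69.0 CPM in treated control livers, which did not overlap, and to 29.0 to 51.8 and 53.6 to 79.0 CPM in FBXL5ΔDC livers. Of these 8 markers 1 was called higher in control and 2 in FBXL5ΔDC livers. Kupffer cell markers summed to 102 to 127 and 130 to 165 CPM in untreated and treated control livers and to 121 to 160 and 146 to 261 CPM in FBXL5ΔDC livers, with 1 and 2 of 6 called higher. For dendritic cell markers, untreated and treated sums were 6.23 to 7.42 and 4.53 to 7.80 CPM in control livers. They were 5.09 to 5.98 and 5.77 to 6.63 CPM in FBXL5ΔDC livers, with 0 of 7 called. Lymphocyte sums were, in the same order, 1.65 to 2.55, 1.37 to 2.90, 1.07 to 2.63 and 1.61 to 2.46 CPM (0 of 9 called). Red blood cell sums were 273 to 338, 486 to 535, 308 to 537 and 352 to 655 CPM (1 of 5 called higher in control livers).

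The share of counts from mitochondrially encoded genes was 8.94% to 9.43% in treated FBXL5ΔDC livers and 5.32% to 7.05% in all others. It was 7.05% in control replicate 3 at 6 h.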

How the data were processed

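Whole-liver RNA-seq libraries (12, in 4 groups of 3) were compared. The submitters' processing notes name Trim Galore 0.6.6 for trimming and HISAT2 2.2.1 for alignment, and the values deposited are whole-number estimated counts per gene, in 1 table. The counting program and its strand setting are not given in the sources used here. Of the values from 1 to 40 in a library, 26.5% to 28.5% were multiples of 4, a small excess, since every 4th whole number is one. Its origin is not known, so the fragments behind a count are unknown. The tests had been planned for raw counts, and no rounding was needed.

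Genes were filtered with filterByExpr by group, scaled with TMM and tested in edgeR 4.0.16 (R 4.3.3) with the robust quasi-likelihood test, 1 coefficient per group and 8 residual degrees of freedom. P-values were adjusted (Benjamini-Hochberg) over all 17585 tested genes of each of 5 contrasts, and called below 0.05. CPM uses TMM-scaled totals, and log2 CPM a prior count of 2. A group mean under 12 counts was called under the floor, a rule set after seeing the values for the contrasts of Fosl1 and Batf that it removes, and the floor covers counting error only.

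Identifiers were matched to GENCODE vM21 (GRCm38) without version for 99.5% of genes. The genes named beside the 8 members are, from each list, up to 3 with the smallest p in each acetaminophen contrast and up to 2 between treated genotypes, among those called, plus the 3 nearest genes of each member, Fbxl5 and Itgax. Of the genes this rule gives, 2 are not reported here. The members, lists and rules were chosen with earlier results of these data known. Alternatives were DESeq2 1.42.0, limma-voom (limma 3.58.1), other scalings, no filter, counts divided by 4, a replicate block, 2-group fits, and leaving out each library. Replicate number was not used in the main tests. Deviations of libraries with the same number had no correlation over 0.1 (-0.061 to 0.029). Low correlations cannot exclude that such libraries shared a batch.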

Additional observations from a re-analysis of the deposited data

Results flagged for a closer look

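The response of Jun to acetaminophen differed between genotypes by a test of the difference itself, with an interaction of -3.17 on the log2 scale (SE 0.53, edgeR adjusted p = 0.0465). The call passed in 7 of 20 alternatives. It was lost with the replicate block (adjusted p = 0.0569) and without any 1 of 10 of the 12 libraries (adjusted p = 0.0793 to 0.142). All 3 treated control livers (304 to 497 CPM) lay above all 3 treated FBXL5ΔDC livers (45.2 to 66.4 CPM). The fitted responses were 3.98 in control and 0.80 in FBXL5ΔDC livers, the latter 1.35 (edgeR adjusted p = 0.00983) without FBXL5ΔDC replicate 2 at 0 h. With 3 libraries a group, single libraries were not screened as outliers.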

How the results depend on the processing

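Of the counts of members called under each alternative, 173 were within 1.5 times the count reported and 35 were not, that is, they moved. Counts of 0 that stayed 0 are among the 173. Between treated genotypes the number higher moved in 14 of 21 alternatives and the number lower in 0 of 21. The number lower in the interaction moved in 13 of 20. With acetaminophen the number higher moved in 4 of 21 in control and 3 of 21 in FBXL5ΔDC livers. In control livers the number of members called higher was 2 when only the groups of the contrast were fitted, and 2 to 5 with each library left out. In FBXL5ΔDC livers it was 3 with limma-voom and 3 to 5 with each library left out. Between treated genotypes the number called higher was 0 with library totals only, with the replicate block and with only the groups of the contrast, 3 with limma-voom, and 0 to 3 with each library left out, the 3 being Junb, Fosl1 and Fosl2 without control replicate 3. In the interaction the number called lower was 0 with upper quartile scaling (Jun -3.13, adjusted p = 0.0545), with no low-count filter (-3.18, adjusted p = 0.0713) and with the replicate block (-3.18, adjusted p = 0.0569), and 0 to 1 with each library left out, while the number called higher was 0 to 2. With the replicate block the 6 h difference of Fosl2 was 0.85 (edgeR adjusted p = 0.0648). Apart from this call and that of the Jun interaction, the block changed no call of a member. With the longest transcript as length, untreated control livers held 10.5% Junb and 79.2% Jund. Between treated genotypes the list counts were also not firm. The 2 textbook AP-1 targets called higher, Plaur and Hbegf, became 0 to 4 with each library left out, and this count moved in 15 of 21 alternatives. The counts lower moved in 15 of 21 for the JNK cascade (Map3k11), 17 of 21 for protein turnover (Itch) and 9 of 21 for the other bZIP partners (3, with Atf3).

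Genes called over all tested ran from 35 to 1873 higher and 215 to 2376 lower between treated genotypes, and from 0 to 1103 higher and 1 to 1430 lower in the interaction, with each library left out, the highest of each without control replicate 3 at 6 h. Directions turned only for values that were not called. At 0 h, Fos turned to -0.028 and Fosb to -0.0078 with library totals only, and Fosb to -0.21 with limma-voom and -0.27 with the replicate block. At 6 h, Fosb turned to -0.0058 with library totals only, and with limma-voom Fos turned to 0.37 and its interaction to 0.28. With each library left out, the log2 differences at 0 h ran from -0.26 to 0.60 for Jun, -0.087 to 0.12 for Jund, -0.45 to 0.42 for Fos, -2.14 to 0.70 for Fosb and -0.15 to 0.18 for Fosl2. At 6 h they ran from -1.24 to 1.66 for Fos, -0.64 to 3.30 for Fosb and -0.027 to 1.33 for Batf, and the interaction from -1.35 to 1.56 for Fos and -0.76 to 3.18 for Fosb. The causes were not tested. Batf had at most 72 counts in any library.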
